A study of Mus musculus with 4 samples.

Results

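The nuclear genes that encode subunits of the mitochondrial respiratory chain were followed across 4 arrays of lamina propria lymphocytes. Members were chosen by symbol alone, as the genes whose probe accession maps to a numbered Ndufa, Ndufb, Ndufc, Ndufs or Ndufv gene, to a Uqcr gene, to Cox4 through Cox8, or to Sdha, Sdhb, Sdhc, Sdhd, Cyc1 or Cycs. This gave 69 of the 20619 named genes on the array, carried by 90 probes. Complex I supplied 35 members, complex II 4, complex III 9 and complex IV 20, and Cycs encodes the mobile carrier cytochrome c. Ndufa4 and Ndufa4l2 were counted with complex IV, where the protein of Ndufa4 is now known to sit.

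The respiratory chain is a row of protein complexes in the inner mitochondrial membrane. Complex I takes electrons from NADH and complex II takes them from succinate; both pass them to complex III, from there cytochrome c carries them to complex IV, and complex IV hands them to oxygen. The proton gradient built along the way drives ATP synthase. Most subunits are encoded in the nucleus, and their genes commonly share binding sites for the transcription factors NRF1, GABPA (also called NRF2) and YY1. Lymphocytes rely on the chain at rest and remodel it when they are activated.

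The cells were lymphocytes of the lamina propria, the connective tissue under the gut epithelium, from C57BL6 mice. All mice had received dextran sulfate sodium (DSS), which damages the gut epithelium and is used as a model of colitis, and cells were collected at day 10. Groups were formed by genotype, wild type or Stat4 knockout, and by treatment, DSS alone or DSS together with leukemia inhibitory factor (LIF), an interleukin-6 type cytokine. Each of the 4 groups had 5 mice and 1 array; whether the mice were pooled is not stated in the labels. Below, values over the 4 arrays are listed in the order wild type DSS, wild type DSS+LIF, labelled knockout DSS, labelled knockout DSS+LIF. The study's title names a therapeutic effect of LIF through STAT4 as its subject, and the comparisons below are LIF against no LIF in each genotype and genotype against genotype under each treatment.

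Every group had a single array, so there is no replicate error or test, and a difference describes a pair of arrays. A level is the log2 of the processed signal after subtracting the array's own 75th percentile. A member was measured in a comparison when both arrays showed its brightest probe well above background. Replicate spots of one probe gave a median SD of the log2 difference between 0.0998 and 0.107, an error of spotting and scanning only. A difference of at least 1 in log2, which is 2-fold, was counted. In RNA from a mixed preparation, fewer cells of a type and less RNA per cell cannot be told apart.

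Facts about the arrays bear on every value. The 75th percentile of the signal was 121.2 for wild type DSS and 23.4 for wild type DSS+LIF, against 45.3 and 43.0 for the arrays labelled knockout. Over 12726 probes the array of wild type DSS+LIF correlated with the others at r = 0.80 to 0.82, and the other 3 with each other at r = 0.95 to 0.98. The only Stat4 probe read -0.48, 0.24, 0.31 and -0.47 in that order, so it did not separate the genotypes; where the probe lies relative to the deleted part was not checked. The arrays are therefore called labelled knockout here. Both DSS arrays came from the same scan and each LIF array from a scan of its own, so LIF and scan cannot be told apart, and neither can genotype and scan under DSS+LIF. Of the leukocyte and lymphocyte markers, 9 to 12 of 12 on the array were above background on each array, and intestinal epithelium markers were too, 10 or 11 of 11.

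Promoters are shown first for the members that the results below turn on: Uqcrfs1 and Cycs, which stood lowest in the arrays labelled knockout under DSS, complex II, whose subunits went both ways, and Cox6a1, the member with the widest gap between its LIF differences. The 250 bases upstream of each start site are from RefSeq, build GRCm38.p6, written 5′ to 3′ on the gene's strand. Capitals mark matches on either strand to the core letters of NRF1 (CGCNTGCG), to GABPA (CCGGAAG) or to YY1 (AAGATGGC).
Uqcrfs1, chr13:30545317-30545566, minus strand: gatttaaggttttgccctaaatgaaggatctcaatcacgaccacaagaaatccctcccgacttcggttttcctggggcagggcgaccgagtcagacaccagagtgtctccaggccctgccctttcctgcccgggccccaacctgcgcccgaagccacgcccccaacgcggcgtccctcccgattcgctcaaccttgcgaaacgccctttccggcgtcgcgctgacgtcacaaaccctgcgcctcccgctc
Cycs, chr6:50566570-50566819, minus strand: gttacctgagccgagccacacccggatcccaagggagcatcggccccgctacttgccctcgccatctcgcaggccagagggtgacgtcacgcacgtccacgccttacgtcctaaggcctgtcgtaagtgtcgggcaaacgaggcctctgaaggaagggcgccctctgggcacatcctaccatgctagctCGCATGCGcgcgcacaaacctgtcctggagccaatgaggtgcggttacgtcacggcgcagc
Cox6a1, chr5:115348959-115349208, minus strand: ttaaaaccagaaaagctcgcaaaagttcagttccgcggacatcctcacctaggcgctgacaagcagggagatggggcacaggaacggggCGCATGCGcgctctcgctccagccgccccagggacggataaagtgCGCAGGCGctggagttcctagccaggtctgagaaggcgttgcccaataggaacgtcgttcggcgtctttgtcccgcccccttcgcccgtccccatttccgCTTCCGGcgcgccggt
Sdha, chr13:74350241-74350490, minus strand: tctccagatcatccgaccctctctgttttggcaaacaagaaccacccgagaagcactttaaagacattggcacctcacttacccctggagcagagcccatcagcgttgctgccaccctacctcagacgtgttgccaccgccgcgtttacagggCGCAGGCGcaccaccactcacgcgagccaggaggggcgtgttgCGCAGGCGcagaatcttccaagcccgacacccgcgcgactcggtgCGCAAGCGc
Sdhb, chr4:140961021-140961270, plus strand: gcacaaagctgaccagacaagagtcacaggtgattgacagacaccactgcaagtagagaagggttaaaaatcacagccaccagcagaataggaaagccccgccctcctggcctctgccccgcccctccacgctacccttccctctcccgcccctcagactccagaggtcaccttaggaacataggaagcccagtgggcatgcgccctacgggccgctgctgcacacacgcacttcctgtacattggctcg
Sdhd, chr9:50603850-50604099, minus strand: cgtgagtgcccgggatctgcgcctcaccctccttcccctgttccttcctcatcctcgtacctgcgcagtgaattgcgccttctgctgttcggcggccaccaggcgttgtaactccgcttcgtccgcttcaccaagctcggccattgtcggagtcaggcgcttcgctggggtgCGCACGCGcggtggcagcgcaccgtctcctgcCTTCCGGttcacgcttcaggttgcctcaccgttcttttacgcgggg
Positions are given from the start site, negative upstream, at the first base of a match. Uqcrfs1, the Rieske iron-sulfur protein of complex III, has no match in this stretch, and Cycs has an NRF1 match at -61. Cox6a1, a subunit of complex IV, has NRF1 matches at -161 and -116 and a GABPA match at -16. Sdha, the flavoprotein subunit of complex II, has NRF1 matches at -97, -54 and -9. Sdhb, the iron-sulfur subunit, has no match upstream but has a GABPA match at 7, past the start site and outside the stretch shown. Sdhd, a membrane anchor, has an NRF1 match at -78 and a GABPA match at -46.

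A window of 300 bases, from 250 before to 50 after the start, was found for 54 members, 56 windows in all. The NRF1 letters stood in 19 of them (33.9%), against 8.21% of 32851 windows of all genes. GABPA letters stood in 11 (19.6%, against 8.86%) and YY1 letters in 7 (12.5%, against 2.75%). For SP1 (GGGCGG) the count was 24 (42.9%, against 35.7%). Overlaps between matches of different motifs were not removed. These are matches of letters on both strands and not sites shown to be bound.

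Detection of the members was high. Of the 69, 62 (89.9%) were well above background on all 4 arrays, against 39.0% of all named genes. Cox7b2 and Cox8c, isoforms of complex IV known from testis, were not well above background on any array. Cox8b, Ndufa4l2, Ndufa11, Ndufs8 and Uqcrc1 were above it on 1 to 3 arrays. No member probe was saturated and none had a spot marked as an outlier. The members lie on 19 chromosomes, so they are not a genomic cluster.

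**Figure D1:**
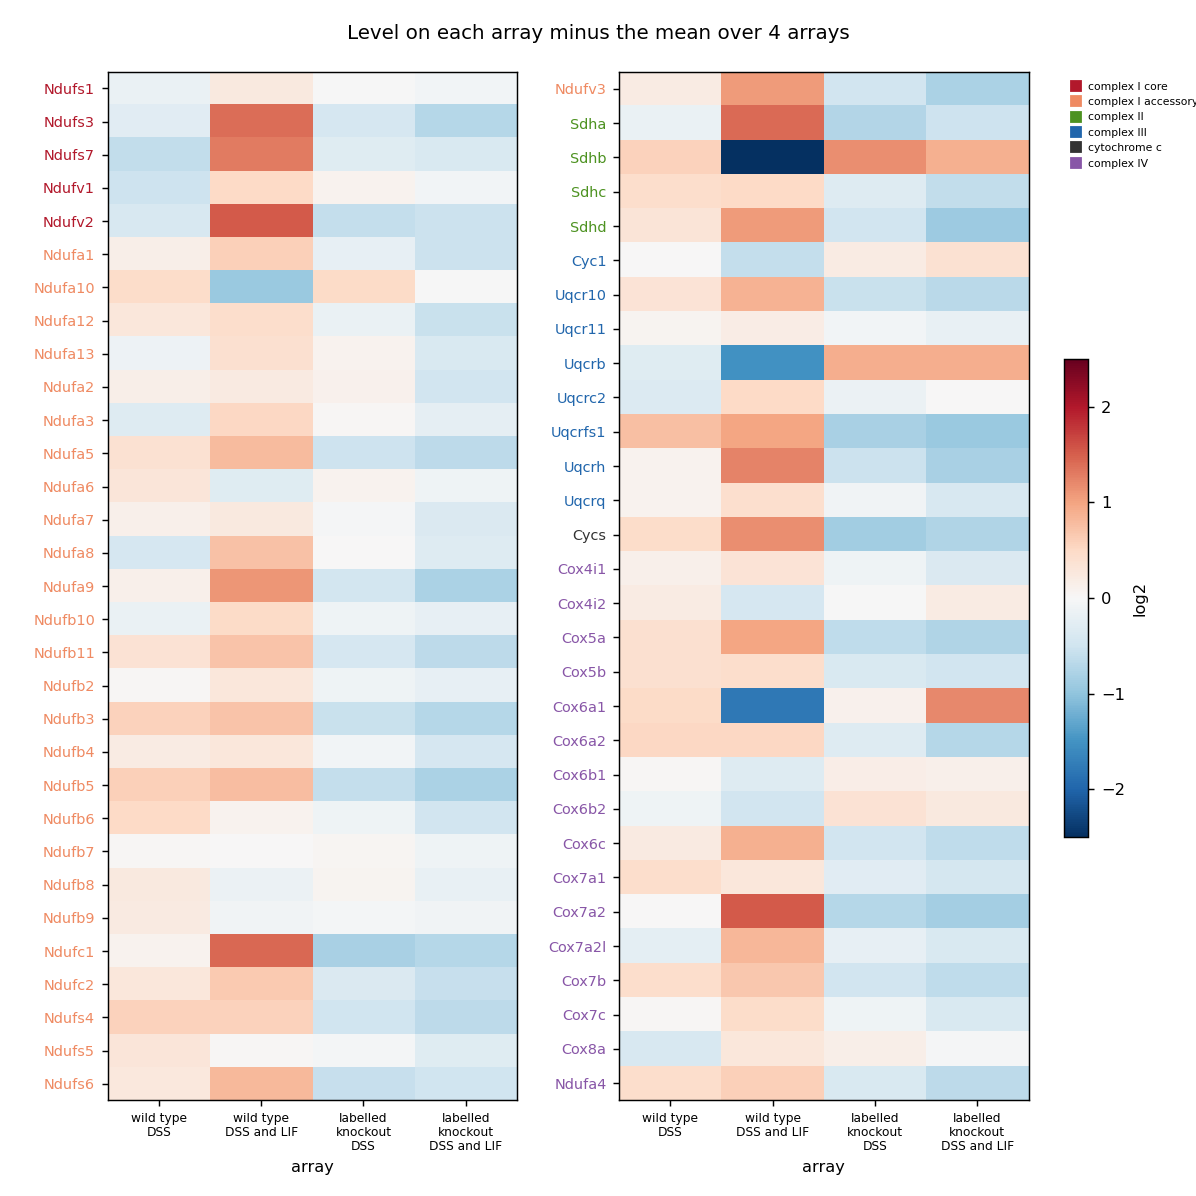
Each row is a member above background on all 4 arrays (1 of the 62 is not shown) and each column an array; colour is the log2 level minus the member's mean over the 4 arrays, and label colour gives the complex. For 39 of the 62 members neither labelled knockout value reaches a wild type value. Most of these rows are red in both wild type columns and blue in both labelled knockout columns. Others of them, such as Ndufs3, Ndufv2 and Sdha, lie below their mean on wild type DSS. Sdhb, Cox6a1, Uqcrb and Ndufa10 are bluest on wild type DSS+LIF.

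Between genotypes, most members were lower on the arrays labelled knockout. Both arrays labelled knockout lay below both wild type arrays for 39 of the 62 members (62.9%), against 24.8% of the 8045 genes measured on all 4 arrays and 28.3% of the 2789 of these at or above the lower quartile of the members' levels. The reverse order held for 5 members (8.06%), against 15.6% of all genes. The array of wild type DSS+LIF stands apart, and without it both labelled knockout arrays lay below wild type DSS for 42 of 63 members (66.7%), against 34.1% of all genes. The lowest value of a member fell on labelled knockout DSS+LIF in 39 of 62 cases, and on that array in 20.8% of all genes. The 2 genotype comparisons use separate arrays, and over the members their differences correlated at r = 0.60 (rho = 0.64, n = 62 genes). Over all genes r was 0.20, and over those at or above the lower quartile of the members' levels it was 0.31. Genes are not independent replicates, and these correlations are a description.

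Under DSS alone, 63 members were measured and the median difference, labelled knockout minus wild type, was -0.27, against 0.06 over all 10501 measured genes and -0.0049 over genes at or above the members' lower quartile of level, called genes of like brightness below. At least 2-fold lower were 6 members, 9.52% of those measured, against 7.17% of all genes. At least 2-fold higher was 1 member, against 12.8% of all genes. The share of members lower by 2-fold was thus near that of all genes and the share higher was smaller. A difference below 0 was seen in 45 of 63 members, 4915 of 10501 of all genes and 1417 of 2817 genes of like brightness. With the normexp correction, which models the background from the raw signal, 26 (offset 50) or 12 (no offset) were at least 2-fold lower, against 7.85% and 6.61% of all genes. Genes of like brightness then had medians of -0.51 and -0.16, against -0.83 and -0.48 for the members. Markers of other cells differed in the same pair of arrays: neutrophil markers had a median difference of 2.80 (5 of 6 at least 2-fold higher), stroma and smooth muscle markers 2.01, adipocyte markers 2.43, and intestinal epithelium markers -0.80 (10 of 11 below 0). Over the 4 arrays the summed neutrophil signal was 9.12, 8.59, 11.7 and 11.3 in log2, with Cxcr2 and Ltf below background on all of them, and that of intestinal epithelium was 5.09, 5.76, 4.52 and 4.98. Stroma and smooth muscle summed to 2.84, 4.70, 4.70 and 3.73 (Des below background on all) and adipocyte to 2.27, 1.22, 4.14 and 3.38 (Plin1 below background on all). Leukocyte and lymphocyte markers had a median difference of -0.03 under DSS, with 5 of 12 above 0 and 7 below. The part of these markers in the members' values was not tested.

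Uqcrfs1, the Rieske iron-sulfur protein of complex III, had the lowest difference under DSS. Its level was 5.60 in wild type DSS, 5.84 in wild type DSS+LIF, 4.04 in labelled knockout DSS and 3.92 in labelled knockout DSS+LIF. Both labelled knockout values lay well under both wild type values, with differences of -1.56 under DSS and -1.92 under DSS+LIF, and its LIF differences were 0.24 in wild type and -0.12 in labelled knockout. Cycs read 4.87, 5.59, 3.55 and 3.67 in the same order, a difference of -1.32 under DSS and of -1.91 under DSS+LIF. A second Cycs probe gave -0.90 and -1.12. Cytochrome c was thus lower on the labelled knockout arrays by both probes that were above background.

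Complex I gave 3 of the 6 members that were lower under DSS, all accessory subunits, which surround the catalytic core. Ndufb5 read 6.54, 6.73, 5.36 and 5.17 over the 4 arrays in the same order, a difference of -1.18 under DSS. Ndufb3 read 4.28, 4.42, 3.15 and 2.99, a difference of -1.13. Ndufs4, needed for a late step of complex I assembly, read 3.68, 3.69, 2.60 and 2.46, a difference of -1.07. In all 3 the wild type pair and the labelled knockout pair were each close together and did not overlap. A second Ndufb5 probe gave -2.84 under DSS and -0.99 under DSS+LIF, so the probes shared the sign and not the size.

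Cox5a, a nuclear subunit on the matrix side of complex IV, read 6.98, 7.58, 5.94 and 5.84, a difference of -1.04 under DSS and -1.74 under DSS+LIF. Uqcrb, the ubiquinone-binding protein of complex III, was the member counted as higher. Its brightest probe read 7.71, 6.48, 8.90 and 8.92, a difference of 1.20 under DSS and 2.44 under DSS+LIF. The other 2 Uqcrb probes gave 0.08 and 0.78 under DSS and -0.36 and 0.08 under DSS+LIF, so Uqcrb is uncertain.

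By complex, the median under DSS was -0.34 for complex I accessory subunits (21 of 27 below 0), -0.54 for complex IV (12 of 16), -0.66 for complex II (3 of 4) and -0.14 for complex III (5 of 9). Of all 10501 measured genes, 4915 were below 0. The core subunits of complex I, which carry its flavin and iron-sulfur clusters, were split 3 and 3 with a median of 0.07. Ndufv1, which binds NADH, read 2.49 in wild type and 3.11 in labelled knockout under DSS, the highest of the complex I differences at 0.62. Relative to the median of all genes, the core median lay at 0.02 and the accessory median at -0.39.

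**Figure D2:**
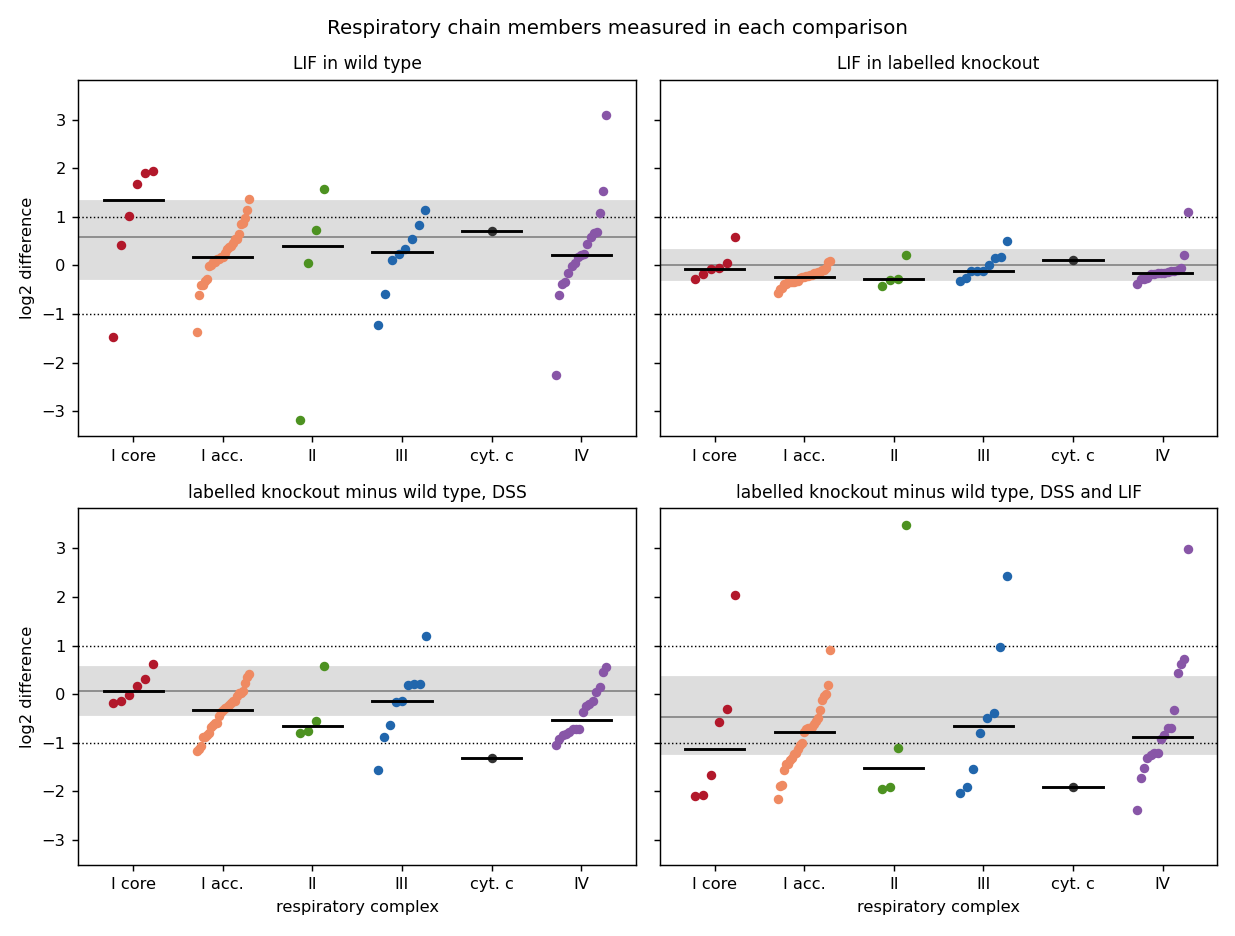
Each point is a member measured in the comparison, arranged by complex on the x axis; the y axis is the log2 difference, the black bar the median of the group, the grey line and band the median and quartiles over all genes, and the dotted lines 2-fold. In both lower panels the medians of complex I accessory subunits, complex II, complex III, cytochrome c and complex IV lie below the grey line. With LIF in labelled knockout the points crowd close to 0.

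Under DSS and LIF the median of the 62 measured members was -0.89, against -0.46 over all 8349 genes and -0.39 over genes of like brightness. At least 2-fold lower were 30 members (48.4%), against 31.7% of all genes, and 4 were at least 2-fold higher (6.45%), against 13.9%. This comparison rests on the wild type array that stands apart, and the whole distribution of genes was shifted. With normexp without an offset 47 members were at least 2-fold lower, against 33.9% of all genes. The median was then -1.82 for the members and -1.19 for genes of like brightness. Neutrophil markers had a median difference of 2.79 here (4 of 4 measured at least 2-fold higher) and pancreatic acinar markers one of 3.36 (5 of 5; summed signal 7.08, 5.54, 7.2 and 8.83 in log2). Leukocyte and lymphocyte markers had a median of -0.97 (4 of 9 at least 2-fold lower, 3 above 0, summed signal 5.46, 6.57, 4.99 and 4.67). Under DSS alone their median was -0.03. Macrophage markers had a median of -1.16 (2 of 4 lower, summed signal 4.39, 5.23, 4.43 and 4.60, C1qa below background on all arrays). The part of these markers in the result was not tested.

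The lowest differences under DSS+LIF were those of Cox7a2, Ndufc1 and Ndufs3. Cox7a2, the broadly expressed isoform of a small complex IV subunit, read 8.65, 10.18, 7.92 and 7.80 in the order used above, a difference of -2.38. Ndufc1, an accessory subunit of complex I, read 7.30, 8.66, 6.41 and 6.50, a difference of -2.16. Ndufs3, a core subunit, read 3.33, 5.01, 3.19 and 2.90, a difference of -2.10. In these 3 members the wild type value with LIF stood well above the other 3 values, and the DSS difference was -0.73, -0.89 and -0.15. The highest differences were those of Sdhb (3.49), Cox6a1 (2.98) and Uqcrb (2.44), and for each of them the wild type array with LIF held the lowest of the 4 values.

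**Figure D3:**
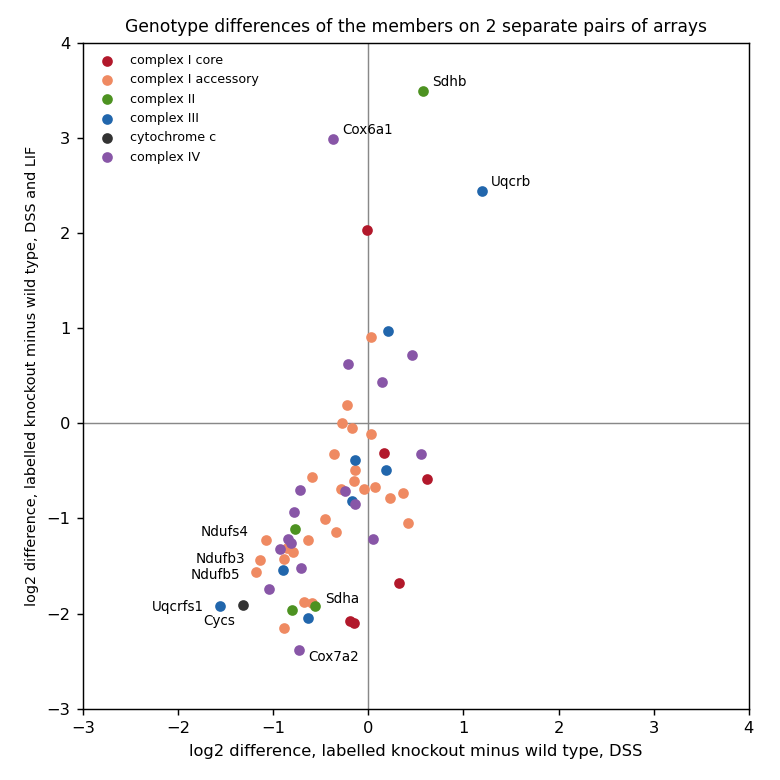
Each point is one of the 62 members; the x axis is the log2 difference between labelled knockout and wild type under DSS and the y axis the same under DSS+LIF, from a separate pair of arrays. The lower left part of the plot holds 40 of the 62 members (64.5%, against 32.8% of all genes), among them Uqcrfs1 at -1.56 and -1.92 and Cycs at -1.32 and -1.91; Sdhb lies highest at 3.49.

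LIF in wild type compared the brightest and the dimmest array. The median of the 63 measured members was 0.26, against 0.58 over all 8964 genes and 0.34 over genes of like brightness. At least 2-fold higher were 11 members (17.5%), against 34.8% of all genes, and 5 were at least 2-fold lower (7.94%), against 13.5%. The members thus spread less than genes in general (SD over genes 0.90, against 1.51). The sign of their median turned with the background correction, to -0.78 with normexp at offset 50 and -0.21 without an offset. At offset 50, 1 member was at least 2-fold higher and 21 lower, against 8.46% and 17.2% of all genes. The median of genes of like brightness turned as well, to -0.77 and -0.14. The highest value of a member was on wild type DSS+LIF in 45 of 62 cases, while 54.2% of all genes had theirs there. On the same pair of arrays pancreatic acinar markers had a median of -1.58 (3 of 5 at least 2-fold lower), neutrophil markers one of -0.59 (4 of 4 below 0), and of 10 intestinal epithelium markers 3 were at least 2-fold higher and 3 lower. Their part in the result was not tested.

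Within complex I the core subunits went further than the accessory ones with LIF in wild type. Of 6 core subunits measured, 4 were higher by 2-fold or more and 1 was lower by as much, with a median of 1.35. Of 27 accessory subunits 2 were higher and 1 lower, with a median of 0.18. Of the 4 higher core subunits, Ndufv1 was past 2-fold in 5 of 10 processing settings and the other 3 in 9. Relative to the median of all genes these medians lay at 0.77 and -0.40; the difference between them was not tested and rests on the wild type array with LIF. Ndufv2, which carries an iron-sulfur cluster of the NADH-oxidising arm, read 2.36, 4.30, 2.17 and 2.23, a LIF difference of 1.94 in wild type. Ndufs7, which holds the last iron-sulfur cluster before ubiquinone, read 3.83, 5.75, 4.15 and 4.07, a LIF difference of 1.91. The wild type value with LIF stood alone above the other 3 in both.

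Ndufa10 was the accessory subunit that was at least 2-fold lower. It read 0.91, -0.46, 0.94 and 0.45, and its LIF difference in wild type was -1.38. By their brightest probes, subunits of the same complex thus had differences of opposite sign on this pair of arrays. Here even probes of the same gene had opposite signs in 45.6% of all genes with several measured probes. Opposite signs of single probes therefore do not show that the subunits differed. The low Ndufa10 value was a dim reading on the wild type array with LIF. Its signal there was 16.9, under that array's 75th percentile of 23.4.

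Complex II showed the same split of signs within 4 genes. Sdha read 1.86, 3.44, 1.30 and 1.51, a LIF difference of 1.57 in wild type and 0.21 in labelled knockout. Sdhb read 8.60, 5.41, 9.18 and 8.90, a LIF difference of -3.18 in wild type, the lowest of all members, and -0.27 in labelled knockout. Without the wild type array with LIF, the Sdhb values lay within a narrow span and labelled knockout was above wild type by 0.58 under DSS. A second Sdhb probe was not well above background on that array and gave 0.95 under DSS, the same sign.

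Both membrane anchors of complex II were lower on the labelled knockout arrays. Sdhc read 5.80, 5.85, 5.03 and 4.74, a difference of -0.77 under DSS and -1.11 under DSS+LIF. Sdhd read 3.22, 3.95, 2.42 and 1.99, a difference of -0.80 and -1.96. Sdha was lower too, with differences of -0.56 and -1.92, so 3 of the 4 subunits had no overlap between genotypes in this direction and Sdhb had none in the other, orders seen in 24.8% and 15.6% of all genes. A second Sdhc probe gave -0.91 under DSS and 0.31 under DSS+LIF, so for Sdhc the second of these differences is uncertain.

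Cyc1, the cytochrome c1 subunit of complex III, read 0.79, 0.20, 1.00 and 1.17, with a LIF difference of -0.59 in wild type and 0.17 in labelled knockout and genotype differences of 0.21 and 0.97. It was one of the 5 members whose labelled knockout values both lay above both wild type values. Uqcrc2, a core protein of complex III, had 10 spots per array and shows the error within an array. Its mean was 3.41 ± 0.019 (SD, 10 spots) in wild type DSS, 4.24 ± 0.024 in wild type DSS+LIF, 3.59 ± 0.040 in labelled knockout DSS and 3.75 ± 0.028 in labelled knockout DSS+LIF. Spots of one array are not replicates of the group. Uqcrc1, the other core protein, was not well above background in wild type DSS+LIF. Setting the dim value at the lowest signal of a probe well above background, Uqcrc1 was at least 2.15-fold lower there than in wild type DSS, and at least 3.52-fold higher in labelled knockout than in wild type under DSS+LIF.

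LIF in labelled knockout compared arrays that were alike (r = 0.98 over all probes, r = 0.995 over the members). The median of the 63 measured members was -0.16, against 0.00 over all 9784 genes and -0.07 over genes of like brightness. Below 0 lay 51 of 63 members, 4879 of 9784 of all genes and 1617 of 2817 genes of like brightness. None was at least 2-fold lower, against 2.96% of all genes, and 1 was at least 2-fold higher (1.59%), against 3.32%. The quartiles of the members were -0.28 and -0.09. The count depends on the background correction: with normexp 29 members (offset 50) or 50 (no offset) were at least 2-fold lower, against 8.81% and 24% of all genes. Genes of like brightness then had medians of -0.75 and -1.24, against -0.91 and -1.42 for the members. The lowest were Ndufa2 (6.82 without and 6.24 with LIF, a difference of -0.57), Ndufa10 (-0.49) and Ndufa13 (-0.47), all accessory subunits of complex I. Over the same arrays intestinal epithelium markers were higher (11 of 11 above 0, median 0.60), pancreatic acinar markers were higher (7 of 7 at least 2-fold, median 1.70) and stroma and smooth muscle markers lower (8 of 8 below 0, median -0.73). Their part in the result was not tested.

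Cox6a1, the broadly expressed isoform of a regulatory subunit of complex IV, was the member counted with LIF in labelled knockout. It read 7.73, 5.48, 7.36 and 8.47, a LIF difference of -2.25 in wild type and 1.1 in labelled knockout. The LIF difference in labelled knockout was past 2-fold in 7 of 10 processing settings and turned to -0.38 with normexp without an offset, so the opposite signs in the genotypes were not kept there. Its 3 remaining values without the wild type LIF array were between 7.36 and 8.47. Uqcrc1 read -0.15 without and 0.35 with LIF, a difference of 0.50. Ndufa11 was not well above background in labelled knockout DSS and was at least 2.94-fold higher with LIF.

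Other members with a bound were few. Ndufa11 was at least 2.33-fold lower in labelled knockout than in wild type under DSS, at least 1.44-fold lower with LIF in wild type, and at least 1.81-fold higher in labelled knockout under DSS+LIF. For Ndufs8, a core iron-sulfur subunit of complex I, the bounds were at least 1.31-fold higher with LIF in labelled knockout and at least 1.5-fold lower in labelled knockout under DSS. Ndufa4l2, known as a hypoxia-induced relative of Ndufa4, gave no fold in either comparison where a bound was sought.

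Complex IV has isoform pairs that differ between tissues, and each was read within its own probe, since levels of separate probes cannot be set side by side. The broadly expressed Cox4i1 read 3.24, 3.45, 3.00 and 2.75, and Cox4i2, known from lung, read 1.19, 0.58, 0.98 and 1.20. Under DSS the genotype differences of the pair were -0.24 and -0.21. Under DSS and LIF they parted, at -0.71 and 0.62. The heart and muscle isoform Cox6a2 read -0.44, -0.45, -1.28 and -1.67, a difference of -0.84 under DSS, and Cox7a1, the muscle isoform beside Cox7a2, read 0.63, 0.46, -0.09 and -0.24, a difference of -0.72. Cox6a2 and Cox7a1 were lower on the labelled knockout arrays with no overlap, an order seen in 24.8% of all genes. Of the 9 striated muscle markers, 6 were above background on wild type DSS and 2 on each other array. Only Myh6 and Tnni2 were above it on all arrays. The summed striated muscle signal was 0.83, 2.76, 2.67 and 1.05 in log2. The part of these markers in the isoform values was not tested.

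Cox6b1 and the testis isoform Cox6b2 were among those that went the other way. Cox6b1 read 1.33, 1.00, 1.48 and 1.43, and Cox6b2 read -0.45, -0.83, 0.01 and -0.11. Both had labelled knockout values above both wild type values, by 0.15 and 0.46 under DSS. Cox7b read 6.64, 6.88, 5.72 and 5.56, a difference of -0.93 under DSS, while its relative Cox7b2 was not well above background. Cox8a read 9.23, 9.93, 9.78 and 9.61 and its genotype differences were 0.55 and -0.32, so its groups overlapped by the brightest probe. A second Cox8a probe read 9.13, 10.06, 8.90 and 8.97, with differences of -0.24 and -1.09 and no overlap, so the direction of Cox8a under DSS is not settled. Cox8b, a heart and muscle isoform, read -2.91 in wild type DSS and 0.19 with DSS and LIF, a LIF difference of 3.10 that was the highest of all members, from a dim probe. In labelled knockout Cox8b was not well above background, and it was at least 4.67-fold lower there under DSS+LIF. Ndufa4 read 9.0, 9.16, 8.18 and 7.91, a difference of -0.82 under DSS.

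Probes of one gene gave a further measure of error. Of the members with several measured probes, the median gap between the highest and the lowest difference was 0.43 under DSS between genotypes (14 members) and 0.25 for LIF in labelled knockout (14 members), and 0.80 in both comparisons that use the wild type array with LIF (13 members each). For all genes the gaps were 0.55, 0.39, 1.12 for LIF in wild type and 1.14 for genotype under DSS+LIF. Gaps of at least 1 with opposite signs were seen for Uqcrb and Uqcrq with LIF in wild type, for Ndufb5 with LIF in labelled knockout, and for Sdhc and Uqcrb between genotypes under DSS+LIF. The probes of Uqcrq, a small subunit of complex III, gave 0.33 and -0.72, and those of Ndufb5 gave -0.20 and 1.24. Counting gaps of any size, probes had opposite signs for 7 of 13 members with LIF in wild type (53.8%, against 45.6% of all genes) and for 5 of 14 with LIF in labelled knockout (35.7%, against 42.5%). Between genotypes this was so for 2 of 14 under DSS (14.3%, against 41.5%) and 3 of 13 under DSS+LIF (23.1%, against 44.4%). Where the signs differ, the direction in that comparison is not settled by the array.

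**Figure D4:**
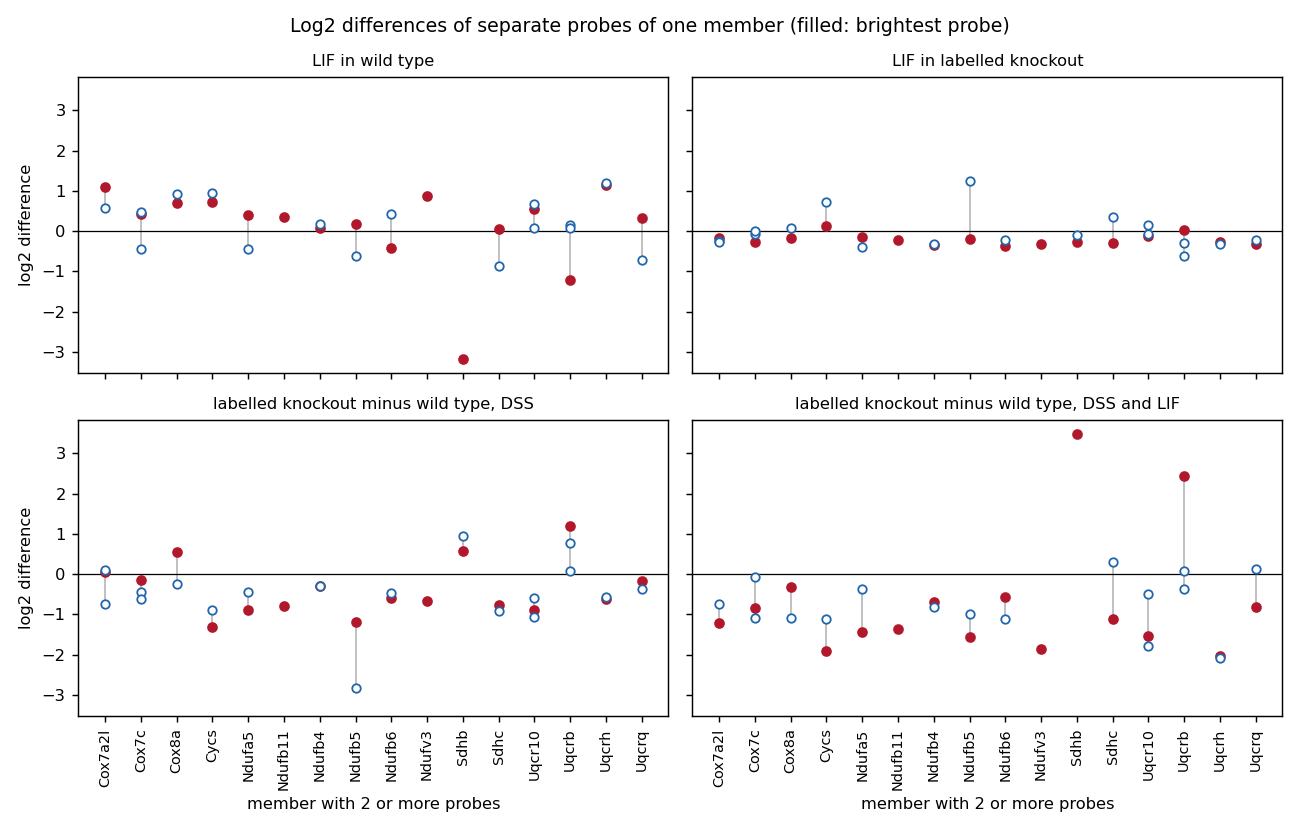
Members with 2 or more probes are on the x axis and the log2 difference of each probe measured in the comparison is on the y axis; filled points are the brightest probe, used for the member, open points the others. Probes lie closest together for LIF in labelled knockout, where the median gap is 0.25, and Uqcrb spreads from -0.36 to 2.44 in the lower right panel.

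The other genes of the pathway were read from lists chosen by symbol. ATP synthase, which uses the proton gradient, followed the members: 15 of 17 genes measured on all arrays (88.2%) had both labelled knockout values below both wild type values, against 24.8% of all genes, and the median was -0.40 under DSS and -1.27 under DSS+LIF. Atp5j, a subunit of its stalk, was the one counted as lower under DSS (-1.33) and Atp5pb the one counted as higher (1.41). Assembly factors, which build the complexes, had the order in 15 of 27 (55.6%) and a median of -0.30 under DSS. For the proteins of the mitochondrial ribosome it was 24 of 53 (45.3%) and -0.23. Under DSS+LIF the medians of these lists were -0.93 and -0.95.

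In neighbouring routes of metabolism the order was about as frequent as the 24.8% of all genes. It was seen in 2 of 10 genes of the tricarboxylic acid cycle (20.0%), with medians of -0.07 under DSS and -0.63 under DSS+LIF, and in 3 of 12 of glycolysis (25%), with medians of -0.14 and -0.61. Among regulators of mitochondrial biogenesis it was 1 of 9 (11.1%), namely Gabpa, at -1.38 under DSS and -1.69 under DSS+LIF. Their median was 0.16 under DSS and -1.39 under DSS+LIF, where 5 of 9 were at least 2-fold lower and the median lay below that of the members. Nrf1 was not measured on all arrays and had a difference of 0.72 under DSS, and Yy1 one of 0.16. The difference between these lists was not tested.

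**Figure D5:**
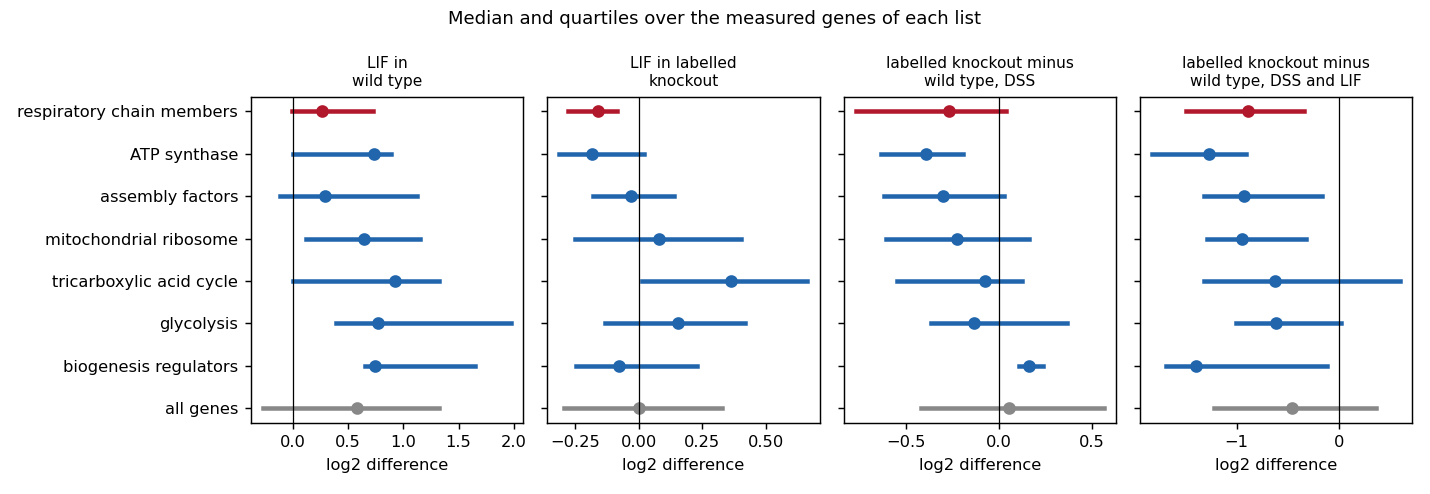
Each dot is the median log2 difference of a list and each bar runs from the lower to the upper quartile over its measured genes, in the 4 comparisons, on x axes of different range. In both genotype panels the medians of the members (-0.27 and -0.89), ATP synthase (-0.40 and -1.27), assembly factors, mitochondrial ribosome, tricarboxylic acid cycle and glycolysis lie to the left of the median of all genes; that of biogenesis regulators does so under DSS+LIF and not under DSS.

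The contrast of the LIF differences set both genotypes side by side. LIF was above 0 in wild type and below 0 in labelled knockout for 39 of 62 members (62.9%), against 35.4% of all genes. The LIF difference in labelled knockout minus that in wild type had a median of -0.47 over the members and -0.52 over all 8045 genes. At least 1 in log2 lower were 15 members (24.2%), against 33.3% of all genes, and 4 were higher by that much (6.45%), against 16.7%. The median contrast was thus close to that of all genes, while fewer members lay past 1 in either direction, and it rests on the wild type array with LIF.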

How the data were processed

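RNA of lamina propria lymphocytes was hybridized in 1 colour (Cy3) to 4 Agilent mouse arrays, 1 per group. Spot intensity values came from Agilent Feature Extraction as run by the authors. The file headers name version 11.0.1.1, while the submitters' processing notes name 9.1. Per the file headers, the processed signal has the background subtracted. A deposited table holds log2 values, and how these were normalized is not stated in the sources used here. Its columns had medians of 3.31, 2.54, 3.31 and 3.31 and correlated with the scanner values at r = 0.971 to 0.992, so scale and direction are settled and centring is not.

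Spots marked as outliers were left out, spots of a probe were averaged as log2 values, and the 75th percentile of each array was subtracted. Being well above background required that mark on 50% or more of a probe's spots. Through RefSeq accessions 27234 of 39429 probes (69.1%) were named (assembly GRCm38.p6, names alone; the promoters carry that build's coordinates). A gene took its brightest probe over the 4 arrays. Genes of like brightness are those at or above the members' lower quartile of level, 1.94. With 1 array per group no p-value was computed and the number of arrays limits the precision.

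The members, lists and alternatives were chosen with earlier results of these data known. Members named with their values were the 3 highest and 3 lowest per comparison, those past 2-fold between genotypes under DSS or with LIF in labelled knockout, complex II, Cyc1, Cycs, isoform pairs, and members whose probes disagree in sign; Ndufv1, Ndufa4l2, Uqcrc2 and other members with a bound were added, and so were Atp5j, Atp5pb, Gabpa, Nrf1 and Yy1, which were named after their values were seen. The values of 1 member are not reported here. Normexp (limma 3.58.1, R 4.3.3), 2 other scalings, 2 filters, the mean over probes, the deposited table and the kept outlier spots were tried as alternatives. The calculation of differences was tested on simulated data.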

Additional observations from a re-analysis of the deposited data

Results flagged for a closer look

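LIF differences that had opposite signs in the genotypes stood out. The median over the members was 0.26 with LIF in wild type and -0.16 with LIF in labelled knockout. It was 0.18 and -0.25 for complex I accessory subunits, 0.39 and -0.28 for complex II, 0.29 and -0.12 for complex III, and 0.21 and -0.15 for complex IV. Cox6a1 had the opposite pattern, -2.25 in wild type and 1.1 in labelled knockout. Over all genes the medians were 0.58 and 0.00. Relative to these the members' median lay lower in both genotypes, at -0.32 and -0.16. With 1 array per group the difference between genotypes was not tested, and the wild type medians turned below 0 for the members with normexp. Without an offset normexp also turned Cox6a1 in labelled knockout to -0.38, the same sign as in wild type.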

How the results depend on the processing

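No paired analysis was possible because each group has 1 array. The genotype order was the steadiest result. Both labelled knockout arrays lay below both wild type arrays for 33 to 40 members under the 9 alternatives. These were 53.2% to 64.5% of members, against 16.9% to 28.0% of all genes. The shares came closest with normexp at offset 50, at 53.2% against 28.0%. Without the wild type array with LIF it was 42 members (66.7%, against 34.1% of all genes), a count chosen after seeing the data. Under every alternative the members' median lay below that of all genes in all 4 comparisons. Against genes of like brightness it lay below in both genotype comparisons under each alternative, and above with LIF in wild type under quantile scaling (by 0.17) and in the authors' deposited table (by 0.16).

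Background correction changed sizes most. With normexp (offset 50) the median with LIF in wild type turned to -0.78, with 1 member past 2-fold upward and 21 downward. Of all genes, 8.46% and 17.2% were so. With LIF in labelled knockout the median was -0.91, with 0 higher and 29 lower, against 0.0511% and 8.81% of all genes. Between genotypes under DSS it was -0.83, with 0 higher and 26 lower, against 3.01% and 7.85%. Under DSS+LIF the median was -1.0, and Ndufv1 with LIF in wild type turned to -0.15. With normexp without an offset these medians were -0.21 (5 higher), -1.42 (0 higher, 50 lower), -0.48 (0 higher, 12 lower) and -1.82 (47 lower), and Cox6a1 with LIF in labelled knockout turned to -0.38. The medians of genes of like brightness moved too. In the same order of comparisons they were -0.77, -0.75, -0.51 and -0.48 at offset 50. Without an offset they were -0.14, -1.24, -0.16 and -1.19. The cause was not tested. With LIF in wild type the median was 0.41 with quantile scaling, 0.13 with scaling to the median of bright probes, where genotype under DSS+LIF gave -0.74, and 0.40 in the authors' deposited table. With no background filter, 2 members were at least 2-fold higher with LIF in labelled knockout, against 12.2% of all genes. Between genotypes under DSS 3 were, against 28.1%. The count between genotypes under DSS was 0 with the mean over probes, against 12.3% of all genes. Both counts were 0 in the authors' deposited table, against 3.81% and 12.7%.

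Of the members past 2-fold, 5 of 7 between genotypes under DSS were so under every setting (Uqcrfs1, Cycs, Ndufb5, Ndufb3 and Ndufs4), 25 of 34 under DSS+LIF, 3 of 16 with LIF in wild type (Sdhb, Cox6a1 and Cox8b, the last with no value under 1 setting) and 0 of 1 with LIF in labelled knockout. The matching shares over all genes are not given here. Most settings start from the same processed signal, so their results are not separate evidence. Signal over background limits the dim members, above all on the wild type array with LIF, where 37.6% of probes were well above background.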
